A study of Homo sapiens with 12 samples.

Results

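The clustered protocadherins are 53 genes on the long arm of human chromosome 5, found among the 45478 genes of the count table by their symbols. Rows whose symbol begins with PCDHA, PCDHB or PCDHG were taken, which gave 15 genes of the alpha cluster, 16 of the beta cluster and 22 of the gamma cluster. A further 5 rows for pseudogenes and 1 for an antisense gene, PCDHB1-AS1, were left out. In GRCh38 the alpha cluster lies at chr5:140786136-141012347, the beta cluster at chr5:141051374-141249365 and the gamma cluster at chr5:141330514-141512977, all on the plus strand.

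mRNA was sequenced from 4 groups of cultured clear cell renal cell carcinoma (ccRCC) cells, with 3 replicate libraries in each. 786-O and A498 are established human ccRCC cell lines and served as the parental groups, without sunitinib. Their sunitinib-resistant sublines, resistant 786-O and resistant A498, were grown out at 4 µM and 2 µM of this tyrosine kinase inhibitor over 4 months or more than 20 passages. The study describes a single resistant subline per parental line and does not say how many cultures were selected. The labels spell out no other treatment for any group. The bracketed library name in every sample title holds the letters veh, which may stand for vehicle and are not explained. The sources do not say whether the 3 libraries of a group come from separate cultures, so the p-values measure the spread between these libraries, which may be technical. Batch and group cannot be told apart, as every group has a different batch label.

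The libraries hold 20042519 to 47972092 counts each, with the A498 and resistant A498 libraries at the lower end. The libraries labelled resistant A498 did not resemble those of A498. Taken over genes, which share their libraries and are no replicates, the median Pearson r of log2 CPM (counts scaled per 1e6 of the normalized library size) with the resistant A498 libraries was 0.870 for A498, 0.951 for 786-O and 0.982 for resistant 786-O. The comparison of resistant A498 with A498 is therefore given together with that of resistant A498 with 786-O. In resistant 786-O, replicate 2 stood apart from replicates 1 and 3, with a chi-square per gene of 45.2 and 44.4 against 7.46 between the latter. Of 10 renal and ccRCC markers, 8 or 9 reached a mean of 1 CPM in every group, and PAX8, a kidney lineage factor, was between 195 and 315 CPM in every library. CA9, a hypoxia target used as a ccRCC marker, reached at most 0.0526 CPM outside A498. Summed T cell markers stayed at or below 0.710 CPM, and the summed neuron markers, at 135 to 319 CPM, were made up mostly of the neurofilament gene NEFL, which was between 116 and 282 CPM. Summed endothelial markers were at 2.18 to 2.66 CPM in A498 and at most 0.488 elsewhere. Summed fibroblast markers were at 50.7 to 62.2 CPM in A498, 24.6 to 26.6 in resistant A498, 10.6 to 11.4 in resistant 786-O and 6.70 to 7.26 in 786-O. A single one of the 4 fibroblast markers reached a mean of 1 CPM in A498, against 3 in resistant A498, so the sum does not follow each marker. The part of these differences in the values that follow was not tested.

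Clustered protocadherins are single-pass cell surface proteins of the cadherin superfamily, best known for giving each neuron its own combination of homophilic recognition molecules. Each alpha and gamma gene supplies one large variable exon, with its own promoter, that codes for the extracellular and transmembrane parts. This exon is spliced to 3 constant exons at the end of the cluster, which code for a cytoplasmic tail common to all members of that cluster. Beta genes consist of a single large exon and have no constant exons. The last genes of the alpha and gamma clusters, the C-type genes PCDHAC1, PCDHAC2, PCDHGC3, PCDHGC4 and PCDHGC5, differ from the others in sequence and in their promoter regulation. Promoters are selected by looping between enhancers and promoters through CTCF and cohesin, and unselected promoters are methylated.

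The constant exons set what these counts can measure. The first one is shown for both clusters, in lower case, because both stand at the same place in their transcripts and a read inside either cannot be given to any single gene.
alpha first constant exon, chr5:140978949-140979007: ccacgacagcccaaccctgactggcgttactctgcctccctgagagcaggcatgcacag
gamma first constant exon, chr5:141494807-141494865: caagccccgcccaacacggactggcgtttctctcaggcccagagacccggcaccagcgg
All 15 alpha genes contain the first of these and all 22 gamma genes the second. The 3 stretches of shared coding sequence measure 59, 89 and 308 bases in alpha and 59, 89 and 224 in gamma.

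Of the exonic bases of an alpha gene, 19.2% to 56.6% (median 46.6%) are exonic in another gene as well, and in gamma 27.5% to 64.4% (median 43.8%). In beta this share was at most 7.63%. featureCounts, with the options stated, leaves out a read that overlaps the exons of several genes, so the counts come from the variable exons, and the output of a whole cluster through its constant exons is not measured. Levels of different genes are therefore comparable only per kilobase (kb) of exonic sequence that belongs to a single gene, and counts, CPM and shares of counts also follow that length. Some genes are also near copies of each other. PCDHB8 shares 25.6% of its windows of 100 bases with another member or a pseudogene, PCDHB10 23.4%, PCDHB13 15.1% and PCDHGB5 15.1%, so their counts are uncertain to that extent. The same holds for PCDHA7 (18.0%), PCDHGB4 (16.7%), PCDHB2 (11.5%), PCDHB9 (10.9%) and PCDHA8 (10.8%), and the share was lower in the remaining members.

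Strand is a further limit. Although a stranded kit and a stranded counting mode are stated, antisense genes that lie inside the exons of strongly counted genes had counts of their own. Among 92 such genes the density of counts was a median of 1.98 times that of the sense gene, and it was above 0.5 times in 69. Reads of a gene and of its antisense partner can therefore not be told apart in this table. This touches PCDHA1, with 2719 of its 2726 gene-specific bases under an antisense exon, PCDHB2 (1797 bases), PCDHB16 (815 bases), PCDHGB1 (554 bases) and PCDHA10 (447 of 12653 bases). Antisense exons also cover 433 to 592 bases of PCDHA3, PCDHA5, PCDHA6, PCDHA9, PCDHA12 and PCDHA13, and in beta 501 of PCDHB5, 393 of PCDHB3, 255 of PCDHB7, 131 of PCDHB11, 101 of PCDHB1, 59 of PCDHB6 and 45 of PCDHB10, besides 21 of PCDHAC2, so the values of these genes carry the same limit. PCDHB1-AS1, which crosses PCDHB2, held 62.0% to 84.9% as many counts as PCDHB2 in the 12 libraries. PCDHGB5, PCDHGC3 and PCDHB13 have no antisense exon.

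The promoters of the members at the centre of the results are shown because many promoters of this family, though not that of PCDHAC2, are known to hold a conserved element with the core CGCT. Capitals mark every CGCT in the window, whether or not it belongs to such an element. The 100 bases before the RefSeq start are given, on the plus strand of GRCh38.p14.
PCDHA10, chr5:140855797-140855896: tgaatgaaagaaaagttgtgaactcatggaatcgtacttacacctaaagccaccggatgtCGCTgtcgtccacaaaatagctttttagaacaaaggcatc
PCDHAC2, chr5:140966376-140966475: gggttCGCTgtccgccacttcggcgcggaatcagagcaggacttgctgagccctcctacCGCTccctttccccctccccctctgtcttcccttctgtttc
PCDHB16, chr5:141182287-141182386: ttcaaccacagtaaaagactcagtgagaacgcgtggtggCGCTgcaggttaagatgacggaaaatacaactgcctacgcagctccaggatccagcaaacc
PCDHB13, chr5:141213819-141213918: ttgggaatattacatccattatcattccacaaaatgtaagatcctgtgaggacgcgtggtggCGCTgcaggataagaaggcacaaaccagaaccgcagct
PCDHGB5, chr5:141397847-141397946: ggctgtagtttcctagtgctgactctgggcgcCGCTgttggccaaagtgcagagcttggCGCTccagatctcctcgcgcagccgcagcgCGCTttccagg
PCDHGC3, chr5:141475866-141475965: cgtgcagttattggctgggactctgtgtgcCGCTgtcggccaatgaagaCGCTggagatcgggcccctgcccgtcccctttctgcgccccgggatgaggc

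RefSeq promoters were matched for 47 of the 53 members, and those of PCDHA3, PCDHA13, PCDHB6, PCDHB11, PCDHGA12 and PCDHGC5 were not searched. In the 250 bases before the start, CGCT stood on the gene's strand in 45 of 47 members (95.7%), against 47.9% of 27305 genes in all. Counting either strand, it stood in 95.7% of members and 64.3% of all genes. The longer CGCTGT, which contains CGCT, stood on the gene's strand in 24 members (51.1%) against 4.54% of all genes, and on either strand in 53.2% against 8.90%. By cluster, CGCTGT was present in 6 of 13 alpha, 1 of 14 beta and 17 of 20 gamma promoters. The promoters of PCDHA10, PCDHAC2, PCDHGB5 and PCDHGC3 hold CGCTGT, although only PCDHGC3 was counted at a high level in all 4 groups. The printed beta promoters of PCDHB16 and PCDHB13 hold CGCT followed by GC.

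The alpha cluster was counted in A498 and had few counts in the other 3 groups. The sum over its 15 genes was 21.1 ± 1.34 CPM (SD, n = 3) in A498, against 0.0496 ± 0.00452 in 786-O, 0.130 ± 0.00745 in resistant 786-O and 0.169 ± 0.0647 in resistant A498. The beta sum was lowest in 786-O at 6.23 ± 0.353 CPM. It was 12.1 ± 1.11 in resistant 786-O, 20.2 ± 1.28 in A498 and 17.6 ± 0.841 in resistant A498. The gamma sum without PCDHGC3 was 48.1 ± 1.17 CPM in A498 and 5.36 ± 0.0868, 7.20 ± 0.575 and 8.57 ± 0.704 in 786-O, resistant 786-O and resistant A498. PCDHGC3 alone was between 46.4 and 65.7 CPM in all 12 libraries. These sums cover the gene-specific exons alone and are given as a description, with no test.

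**Figure D1:**
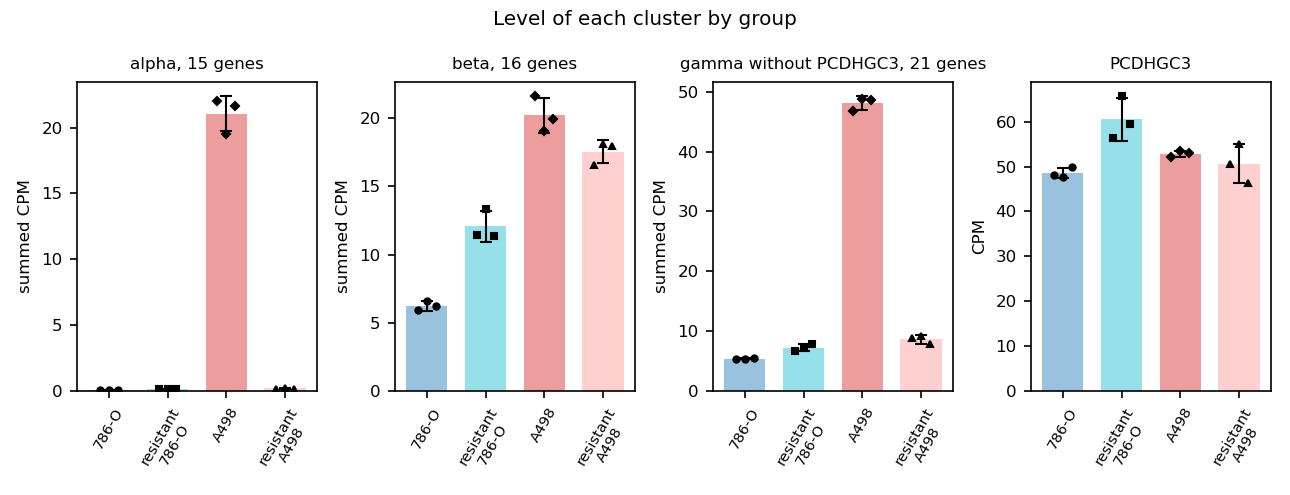
Summed CPM of the alpha, beta and gamma clusters (gamma without PCDHGC3) and CPM of PCDHGC3, by group. Bars are means, error bars are SD, and points are the 3 libraries of a group. The alpha panel is near 0 outside A498 (21.1 CPM), and PCDHGC3 lies between 46.4 and 65.7 CPM in every library.

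Of the 53 members, 15 had a mean of at least 1 CPM in A498, 12 in resistant A498, 9 in resistant 786-O and 5 in 786-O. Scaled to the depth of the smallest library, a mean of 10 counts was reached by 22 members in A498, 15 in resistant A498, 13 in resistant 786-O and 8 in 786-O. At most 3 counts in every library were seen for 7 genes, PCDHA6, PCDHA11, PCDHA12, PCDHA13, PCDHB1, PCDHGA3 and PCDHGB4. The filter on low counts left 32 members for testing, of which 6 were alpha, 12 beta and 14 gamma. The 21 members not tested reached at most 11 counts in any library. A mean of 0.264 CPM equals 10 counts in the median library. It was reached in a single group by 12 of the 32 members, in A498 for 11 of these. These 11 could enter the test only by being higher in A498, and their calls support nothing by number. The other, PCDHGB3, reached this mean in resistant 786-O alone, so its calls support nothing by number either.

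**Figure D2:**
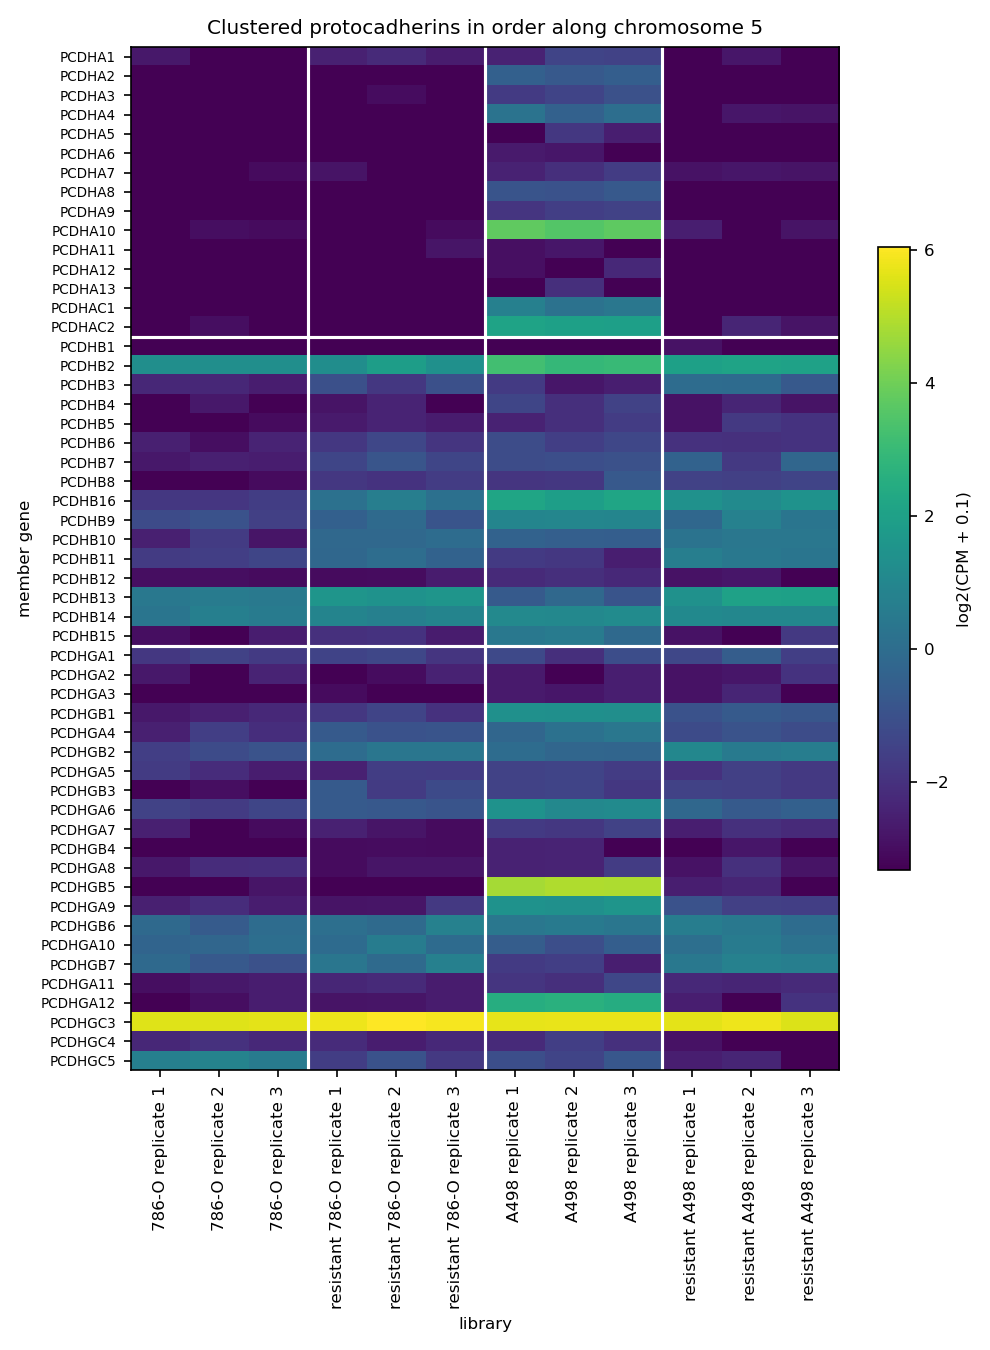
log2(CPM + 0.1) of the 53 members (rows, in their order along chromosome 5, with white lines between clusters) in the 12 libraries (columns, with white lines between groups). PCDHGC3 is bright in all columns, while PCDHA10, PCDHAC2, PCDHGB5 and PCDHGA12 are bright in the 3 A498 columns alone.

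PCDHA10 led the alpha cluster, in counts though not per kb. It had 461, 250 and 359 counts in the A498 libraries, or 13.3, 11.6 and 13.2 CPM. In the other 9 libraries it had 0 to 2 counts, so A498 did not overlap with any other group. From 1070 counts in A498 against 2 in 786-O, its level was 783 times as high in A498 (exact 95% interval 216 to 6471, which covers counting error only, as do the intervals that follow). Against the 3 counts in resistant A498 the ratio was 314 (107 to 1525). The fitted differences were called, with an edgeR adjusted p of 4.44e-13 for 786-O against A498 and of 2.63e-12 for resistant A498 against A498.

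PCDHAC2, a C-type gene and per kb the highest of the cluster, had 4.26, 3.90 and 3.83 CPM in A498. It had at most 2 counts in each of the other 9 libraries, and none in resistant 786-O. The ratio of A498 to 786-O was 490 (87.4 to 19413) on a single count in 786-O, and that of A498 to resistant A498 was 98.3 (33.4 to 479). PCDHAC1, the other C-type gene of the cluster, had 55, 23 and 33 counts in A498 and 0 in the other 9 libraries. Computed against 3 counts over a group, it was at least 54.1-fold higher in A498 than in 786-O and at least 32.6-fold higher than in resistant A498. PCDHA4, an alternate member, had 37, 14 and 26 counts in A498, 0 in all 786-O and resistant 786-O libraries, and 0, 1 and 1 in resistant A498.

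Of the remaining alpha genes, PCDHA2 (11 to 22 counts in A498) and PCDHA8 (9 to 15 counts) were also tested, and both had no counts in the other 9 libraries. Per kb their mean levels in A498 were 0.220 and 0.174 CPM, above the 0.0846 of PCDHA4. All 6 tested alpha genes were lower in 786-O than in A498 and in resistant A498 than in A498. Over all 19929 genes tested, the share called lower was 36.1% in the first comparison and 36.4% in the second. Each of the 6 reached 0.264 CPM, the level of the filter, in A498 alone. They could enter the test only by being higher in A498, so their number supports nothing. With no filter on low counts, 11 and 9 of the 15 alpha genes were called, all lower. Every alpha gene had at least 1 count in A498, and PCDHA1, which lies under an antisense exon, was the alpha gene with the highest count in resistant 786-O, at 5. Between resistant 786-O and 786-O, and between resistant A498 and 786-O, 0 of the 6 were called by edgeR, against 68.5% and 63.6% of all genes. Of the 6, 0 had an unadjusted p under 0.05 and 0 were called by DESeq2, and with no filter the number was also 0 of 15. The 6 had at most 2 counts in each library of these groups, too few to show whether their levels differ. These numbers are therefore no sign of equal levels. Between resistant A498 and resistant 786-O, 1 of the 6 was called by edgeR and by DESeq2, PCDHAC2, on 3 counts over the 3 libraries against 0 (edgeR adjusted p = 0.0457).

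Within the alpha cluster of A498, PCDHA10 held 60.4% ± 0.794 of the counts, PCDHAC2 19.0% ± 1.19, PCDHAC1 6.11% ± 0.980 and PCDHA4 4.21% ± 0.790 (SD, n = 3). Per kb the order changed. PCDHA10 has 12.7 kb of gene-specific exon in the annotation, of which 2538 bases are coding, and its share per kb was 30.3% ± 1.04. PCDHAC2, with 3.29 kb, held 36.6% ± 1.91 per kb. The level was 1.01 CPM per kb for PCDHA10 and 1.21 for PCDHAC2, so which of them is higher depends on how much of the annotated length is transcribed.

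In the gamma cluster PCDHGC3, a C-type gene, was the leading member in every group. Per kb its mean level was 14.9 CPM in 786-O, 18.6 in resistant 786-O, 16.3 in A498 and 15.6 in resistant A498. The next member per kb was PCDHB2 in 786-O, resistant 786-O and resistant A498, at 0.581, 0.681 and 0.989 CPM per kb, and PCDHGB5 in A498, at 10.8. By counts, which also follow length, PCDHGC3 held 90.1% ± 0.0658 of the gamma counts in 786-O, 89.3% ± 0.948 in resistant 786-O and 85.5% ± 0.288 in resistant A498, but 52.4% ± 0.317 in A498.

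PCDHGC3 had 48.2, 47.7 and 49.9 CPM in 786-O and 56.4, 65.7 and 59.6 in resistant 786-O. The groups did not overlap, and the log2 fold change was 0.32 ± 0.06 (SE, edgeR adjusted p = 0.000492). This call rests on the scaling, since the log2 fold change became -0.08 (adjusted p = 0.286) once the dependence on GC content and length was removed. The A498 libraries had 52.1, 53.5 and 53.0 CPM of it and those of resistant A498 50.7, 55.0 and 46.4, which overlap. The log2 difference of -0.06 ± 0.07 (edgeR adjusted p = 0.416) did not pass the test.

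PCDHGB5, a member of the gamma B subgroup, was the second highest member per kb over the 12 libraries (2.71 CPM per kb), through A498 alone. It had 954, 654 and 810 counts there, or 27.6, 30.4 and 29.8 CPM, and 0 to 2 counts in each of the other 9 libraries. The ratio of A498 to 786-O was 1769 (489 to 14612), on 2418 counts against 2. The ratio to resistant A498 was 532 (208 to 1955), on 4 counts. PCDHGB5 made up 29.0% ± 0.933 of the gamma counts of A498.

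PCDHGA12 showed the same division. It had 5.65, 6.0 and 5.44 CPM in A498 and at most 0.156 CPM elsewhere. Its ratio of A498 to 786-O was 173 (67.0 to 636), and its change from A498 to resistant A498 on the log2 scale was -6.06 ± 0.35 (edgeR adjusted p = 5.63e-10). PCDHGA9 (2.66, 2.51 and 2.87 CPM in A498), PCDHGB1 (2.52, 2.46 and 2.35) and PCDHGA6 (2.63, 1.95 and 2.13) were likewise highest in A498, and their other libraries stayed below 0.8 CPM. PCDHGB1 lies in part under an antisense exon.

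**Figure D3:**
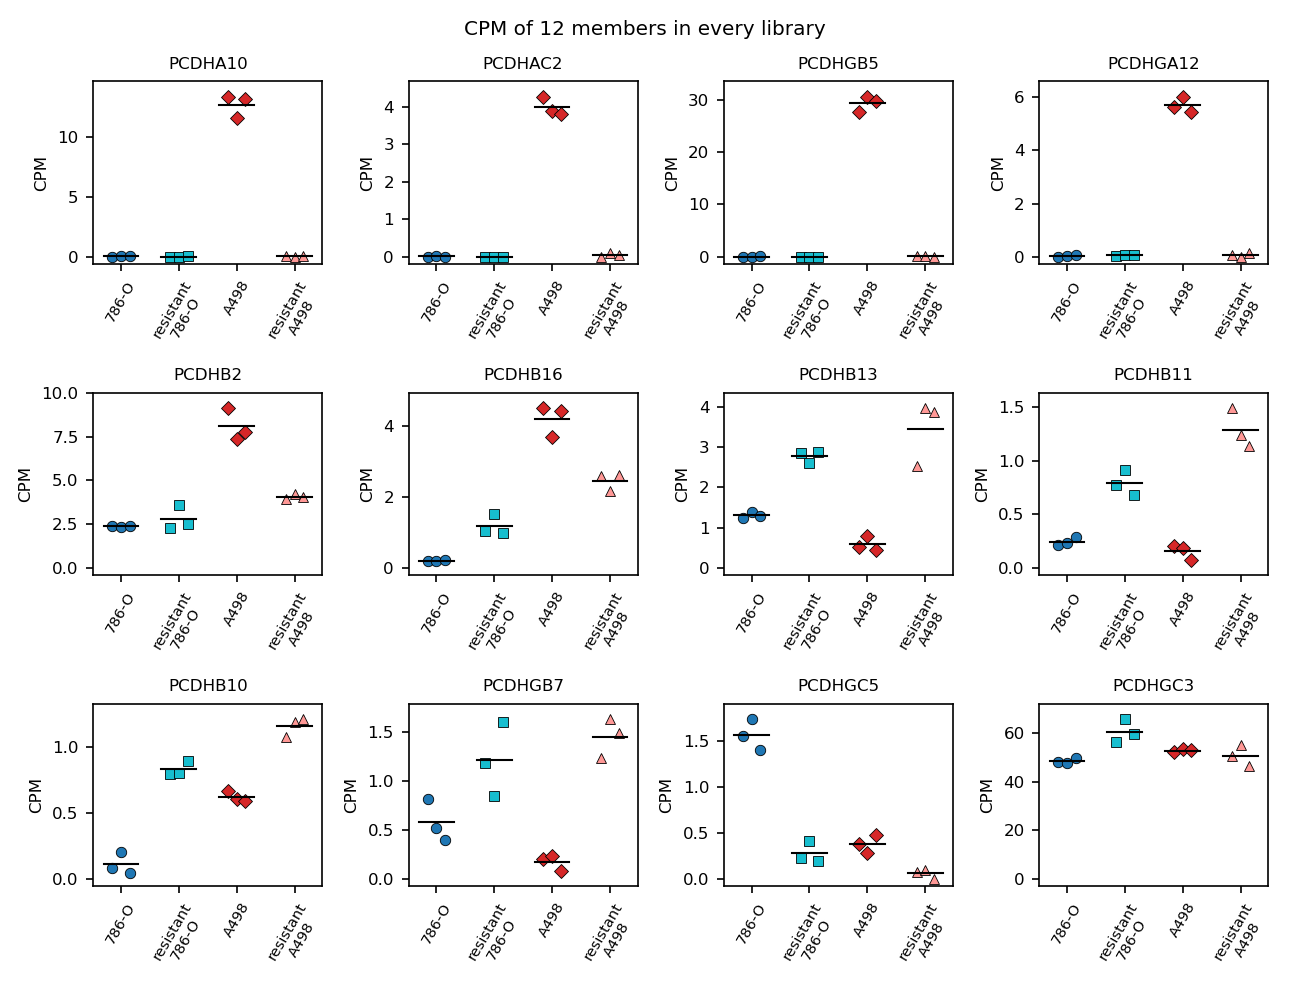
CPM (linear axes, which differ between panels) of 12 members in every library, by group. Each point is a library and each bar is the mean of a group. PCDHA10, PCDHAC2, PCDHGB5 and PCDHGA12 are near 0 outside A498, PCDHB13, PCDHB11 and PCDHGB7 are lowest in A498, and PCDHGC5 is highest in 786-O.

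Comparing the parental lines, 27 of 32 tested members differed between 786-O and A498, and 24 of these were lower in 786-O. Of all genes, 74.2% were called in this comparison, 36.1% as lower and 38.2% as higher in 786-O, but 11 members passed the level of the filter in A498 alone, as described. The 2 groups did not overlap for 30 of the 32 members and for 80.2% of all genes. With the dependence on GC content and length removed, 23 members were lower and 5 higher. Besides the alpha genes, 9 of 12 beta members and 9 of 14 gamma members were lower in 786-O. The median log2 fold change of the 32 members was -2.60, and it was -2.60 as well with genes of few counts set to their ratio or bound, against 0.04 for all genes. PCDHB13 (log2 1.20 ± 0.25), PCDHGB7 (1.74 ± 0.46) and PCDHGC5 (2.01 ± 0.30) were the 3 members higher in 786-O, with edgeR adjusted p of 0.000449, 0.00303 and 2.18e-05. Thinning all libraries to the smallest left 22 members called. PCDHGB6, at 0.749 ± 0.18 CPM in 786-O and 1.25 ± 0.09 in A498, was called by a small margin (edgeR adjusted p = 0.0319). Its call was lost without 786-O replicate 2 (0.126) and without A498 replicate 1 (0.0678), 2 (0.0819) or 3 (0.0544). Thinning (0.145) and removal of the GC and length trend (0.448) lost it as well.

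In resistant 786-O, beta and several gamma members were higher than in 786-O, all but PCDHGC3 with a mean below 3 CPM. Of 32 tested members 17 were higher (against 35.0% of all genes) and 1 was lower (against 33.5%), and with no filter these numbers were 18 and 1 of 53. PCDHGB3, among the 17, reached the level of the filter in resistant 786-O alone. By cluster, 10 of 12 tested beta members rose and none fell, 7 of 14 gamma members rose and PCDHGC5 fell. In either direction 56.2% of the members were called, against 68.5% of all genes, and the groups did not overlap for 18 members, against 68.9% of all genes. The median log2 fold change was 1.74 in beta, 0.59 in gamma and 0.03 over all genes. Scaling by library size alone, which moved the median of all genes to 0.18, gave 19 higher and 1 lower, and removing the dependence on GC content and length, which moved it to -0.12, gave 14 and 1. Without resistant 786-O replicate 2, the library that stood apart, 16 of 31 tested members were called, 15 of them higher. Thinned to the smallest library, 10 of 27 tested were higher and 1 was lower.

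PCDHB10, at 0.0789, 0.207 and 0.0444 CPM in 786-O, had 0.797, 0.801 and 0.897 in resistant 786-O. The groups did not overlap, and the log2 fold change was 2.92 ± 0.33 (edgeR adjusted p = 1.84e-06). PCDHB16, at 0.184, 0.181 and 0.222 CPM in 786-O, had 1.02, 1.51 and 0.984 in resistant 786-O, a log2 fold change of 2.55 ± 0.26 (edgeR adjusted p = 5.34e-07). Replicate 2 of resistant 786-O was the highest of the 3 for PCDHB16. PCDHB11 rose from 0.210, 0.233 and 0.288 CPM to 0.776, 0.916 and 0.678, by 1.67 ± 0.27 on the log2 scale (edgeR adjusted p = 5.96e-05). PCDHB13, which with PCDHB2 led the beta cluster in resistant 786-O, rose from 1.24, 1.40 and 1.29 CPM to 2.86, 2.61 and 2.89, by 1.09 ± 0.18 (edgeR adjusted p = 7.16e-05). These beta proteins carry the extracellular recognition domains but no constant tail.

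PCDHB3 (log2 1.80 ± 0.48), PCDHB6 (1.67 ± 0.45) and PCDHB9 (0.94 ± 0.32) rose as well. PCDHB7 had 2, 3 and 3 counts in 786-O and 14, 20 and 13 in resistant 786-O, a ratio of 5.17 (2.42 to 12.7). PCDHB8 had 0, 0 and 1 counts in 786-O and 9, 7 and 10 in resistant 786-O, a ratio of 22.9 (3.76 to 938), with 25.6% of its windows shared with another gene. PCDHB14 was called with the smallest change among the beta genes, from 1.16, 1.53 and 1.38 CPM to 1.78, 1.6 and 1.75 (log2 0.34 ± 0.14, edgeR adjusted p = 0.0458). It was lost without 786-O replicate 1 (0.190) or 3 (0.0892) and without resistant 786-O replicate 1 (0.0840) or 3 (0.0794). The PCDHB14 call was also lost with DESeq2 (adjusted p = 0.109). With edgeR it was lost for the 2 groups alone (0.0726), with no filter (0.179) and under a replicate block (0.0644). Thinning (0.178) and removal of the GC and length trend (0.149) lost it as well. The PCDHB9 call was lost without 786-O replicate 3 (0.0876) or resistant 786-O replicate 2 (0.0578). With thinning, PCDHB9 (0.109) and PCDHB3 (0.0586) lost their calls. PCDHB2 was not called between these groups, with 2.39, 2.35 and 2.40 CPM in 786-O and 2.29, 3.60 and 2.49 in resistant 786-O (log2 0.22 ± 0.16, adjusted p = 0.218).

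Among gamma genes, PCDHGB2 had 0.237, 0.336 and 0.422 CPM in 786-O and 0.899, 1.19 and 1.18 in resistant 786-O, with a log2 fold change of 1.69 ± 0.25 (edgeR adjusted p = 2.53e-05). PCDHGB7 went from 0.815, 0.517 and 0.399 CPM to 1.18, 0.847 and 1.6, by 1.08 ± 0.29 (edgeR adjusted p = 0.00421). The nearest libraries of the 2 groups, at 0.815 and 0.847 CPM, almost touched. PCDHGB3 had 1 count over the 786-O libraries and 26, 9 and 15 counts in resistant 786-O, a ratio of 44 (7.54 to 1772). Its mean reached the level of the filter in resistant 786-O alone, so its call is no support for a rise of the cluster. PCDHGA4 (log2 1.62 ± 0.35), PCDHGA6 (0.94 ± 0.27) and PCDHGB1 (1.27 ± 0.39) rose. PCDHGB1 lost its call without 786-O replicate 1 (adjusted p = 0.0718) and without resistant 786-O replicate 2 (0.0902). Removal of the GC and length trend lost it too (0.0876), and thinning lost the PCDHGA6 call (0.0525).

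PCDHGC5, the last gene of the cluster and a C-type gene, was the member that fell. It had 1.55, 1.73 and 1.40 CPM in 786-O and 0.225, 0.412 and 0.197 in resistant 786-O. The log2 fold change was -2.48 ± 0.29 (edgeR adjusted p = 2.07e-06), so this gene moved in the opposite direction to the other 17 members called. PCDHGC4 itself was not tested, with 3 to 6 counts in each library of 786-O, resistant 786-O and A498, and 1, 0 and 0 in resistant A498. PCDHGC5 had 0.376, 0.279 and 0.478 CPM in A498 and 0.0746, 0.0957 and 0 in resistant A498, where it was lower as well (edgeR adjusted p = 0.000962). On 4 counts over the resistant A498 libraries, the ratio of A498 to them was 7.04 (2.5 to 27.4).

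In resistant A498 against A498, 24 of 32 tested members differed (72.7% of all genes did), with 17 lower and 7 higher. The shares over all genes were 36.4% lower and 36.3% higher. Here too, 11 members had reached the level of the filter in A498 alone, the 6 alpha genes among them. The groups did not overlap for 25 members and for 78.5% of all genes. Apart from the 6 alpha genes, 4 beta and 7 gamma members were lower and 4 beta and 3 gamma members were higher. The median log2 fold change of the 32 members was -0.88, that of beta was -0.11 and that of gamma -0.73, against 0.00 over all genes. The alpha median was -7.18, or -5.05 with the genes of few counts set to their ratio or bound. Levels in 786-O are set beside these values, given the likeness of the resistant A498 libraries to 786-O.

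PCDHB2, the beta gene with the highest level over the 12 libraries, had 9.12, 7.39 and 7.76 CPM in A498. It had 3.91, 4.21 and 4.03 in resistant A498 and 2.35 to 2.40 in 786-O. It fell by 1.01 ± 0.15 on the log2 scale from A498 to resistant A498 (edgeR adjusted p = 2.04e-05), and it was 0.76 ± 0.16 higher in resistant A498 than in 786-O (adjusted p = 0.000739). Antisense exons cover 1797 of its 4098 bases, and the antisense gene PCDHB1-AS1 moved with it, at 6.28 to 6.98 CPM in A498, 3.17 to 3.25 in resistant A498 and 1.49 to 1.71 in 786-O. PCDHB16 had 4.49, 3.67 and 4.41 CPM in A498 and 2.57, 2.15 and 2.62 in resistant A498. It lay between A498 and 786-O there, with a log2 fold change of -0.78 ± 0.17 against A498 and of 3.62 ± 0.25 against 786-O (edgeR adjusted p = 0.000655 and 7.95e-09). PCDHB15 had 1.24, 1.39 and 0.809 CPM in A498, and 0.0373, 0 and 0.196 in resistant A498, which gave a log2 fold change of -3.75 ± 0.57 (edgeR adjusted p = 2.81e-05).

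PCDHB9 was at 1.82, 1.86 and 1.84 CPM in A498 and at 0.783, 1.63 and 1.13 in resistant A498 (log2 -0.66 ± 0.27, edgeR adjusted p = 0.0356). This call was lost without any of the A498 libraries 1, 2 or 3 (0.0727, 0.0701 and 0.0698) and without resistant A498 replicate 1 (0.211) or 3 (0.0995). DESeq2 (0.0506) and scaling by library size alone (0.0569) lost it as well. Of the gamma genes that were highest in A498, PCDHGB1 had 0.410, 0.526 and 0.469 CPM in resistant A498 and PCDHGA9 0.410, 0.239 and 0.235. Both remained above 786-O there, by 2.45 ± 0.37 and 1.69 ± 0.53 on the log2 scale (edgeR adjusted p = 3.43e-05 and 0.0120). The PCDHGA9 call against 786-O was lost without resistant A498 replicate 1 (0.0789).

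Other members were higher in resistant A498 than in A498. PCDHGB7 had 0.203, 0.232 and 0.0736 CPM in A498, while in resistant A498 it had 1.23, 1.63 and 1.49, for a log2 fold change of 3.07 ± 0.42 (edgeR adjusted p = 8.42e-06). PCDHB11 had 0.203, 0.186 and 0.0736 in A498 and 1.49, 1.24 and 1.13 in resistant A498 (3.02 ± 0.32, adjusted p = 5.82e-07), and PCDHB13 had 0.521, 0.790 and 0.441 in A498 and 2.53, 3.97 and 3.87 in resistant A498 (2.59 ± 0.23, adjusted p = 7.21e-08). Their resistant A498 libraries were above all libraries of both parental lines. PCDHB3 (2.62 ± 0.47), PCDHGA10 (1.09 ± 0.30), PCDHGB2 (0.98 ± 0.24) and PCDHB10 (0.89 ± 0.27) were also called higher, the last with 1.08, 1.20 and 1.21 CPM in resistant A498 against 0.666, 0.604 and 0.589 in A498.

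Against 786-O, the resistant A498 libraries had 17 members higher and 1 lower of 32 tested, where 31.6% of all genes were higher and 32.1% lower (63.6% in either direction). By library size alone 20 were higher and 1 lower, and with GC content and length accounted for 17 and 2. The groups did not overlap for 21 members and for 73.4% of all genes. The 786-O libraries are also the reference of resistant 786-O, so the 2 comparisons share them and their values are given side by side without a test of likeness. For PCDHB10 the log2 fold change was 2.92 in resistant 786-O and 3.40 in resistant A498, for PCDHB16 2.55 and 3.62, for PCDHB11 1.67 and 2.38, for PCDHB13 1.09 and 1.39, for PCDHGB2 1.69 and 2.23 and for PCDHGB7 1.08 and 1.33. For PCDHGC5 they were -2.48 and -4.74, the latter on 2, 2 and 0 counts in resistant A498, which gives a ratio of 786-O to resistant A498 of 28.4 (10.9 to 105).

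Between resistant A498 and resistant 786-O directly, 12 of 32 members were called (46.1% of all genes were), with 10 higher in resistant A498 and 2 lower, where the share over all genes was 23.0% in each direction. The groups did not overlap for 13 members and for 51.7% of all genes. Of those that averaged 1 CPM or more in resistant A498, PCDHB16 (log2 1.07 ± 0.18, edgeR adjusted p = 0.000234), PCDHB9 (0.86 ± 0.29), PCDHB11 (0.71 ± 0.22), PCDHB2 (0.54 ± 0.16) and PCDHGB2 (0.54 ± 0.21) were higher. PCDHGC3 (-0.26 ± 0.07) was lower in resistant A498, and so was PCDHGC5, with a ratio of resistant 786-O to resistant A498 of 5.03 (1.81 to 19.4). The PCDHGC3 call was lost with GC content and length accounted for (adjusted p = 0.285). PCDHAC2 and PCDHGB5 were counted among those higher, on 3 and 4 counts against 0, where both groups are at the floor and no fold is given. The number of calls fell to 7 without resistant 786-O replicate 3, to 8 without resistant 786-O replicate 1 and to 8 without resistant A498 replicate 1. The PCDHB11 call was lost without resistant 786-O replicate 3 (0.0574) or resistant A498 replicate 1 (0.0940) and with DESeq2 (0.0600). That of PCDHB9 was lost without resistant A498 replicate 2 (0.142) or 3 (0.0535) or resistant 786-O replicate 3 (0.0812). It was also lost for the 2 groups alone (0.0705). That of PCDHGB2 was lost without resistant A498 replicate 1 (0.250) or 3 (0.0632) or resistant 786-O replicate 1 (0.141) or 3 (0.0552). DESeq2 (0.104), the 2 groups alone (0.0772), no filter (0.0799), a replicate block (0.0702) and thinning (0.341) lost the PCDHGB2 call as well.

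**Figure D4:**
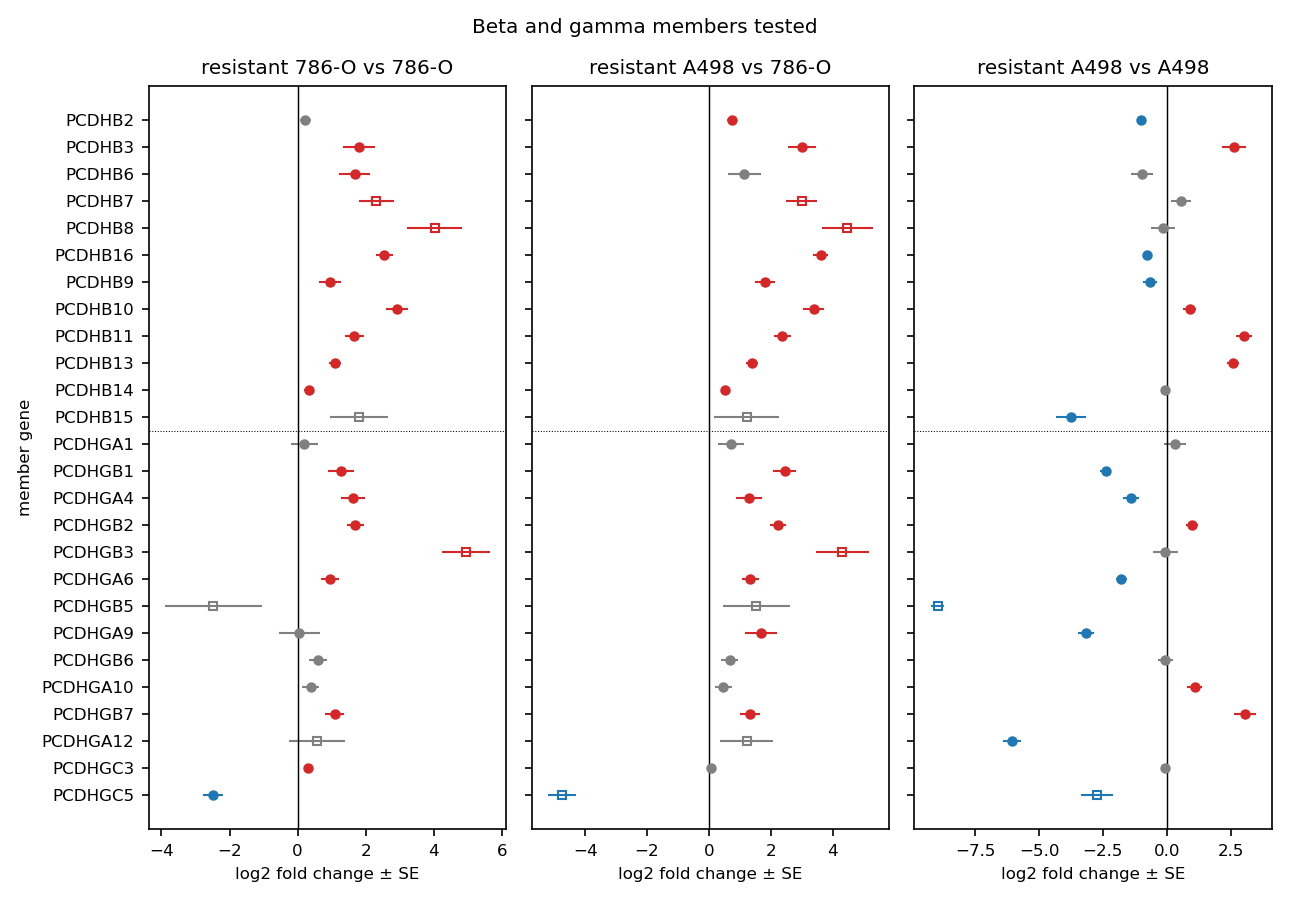
log2 fold change ± SE (edgeR) of the 26 tested beta and gamma members in 3 comparisons, in order along chromosome 5, with a dotted line between the clusters. Red and blue mark calls at an adjusted p under 0.05 (higher and lower), grey marks no call, and open squares mark members for which one of the groups has at most 3 counts in every library. The left and middle panels share the 786-O libraries and hold 17 higher and 1 lower member each among the 32 tested, while the right panel holds values on both sides of 0.

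Whether the change from parental to resistant libraries differed between the cell lines was tested as an interaction. Of 32 members 19 were called (68.3% of all genes were), with 16 lower and 3 higher in the sense of resistant A498 over A498 minus resistant 786-O over 786-O. Over all genes, 34.4% were lower and 33.9% higher in that sense. Among the 16, PCDHA10, PCDHB6, PCDHB8, PCDHB15 and PCDHGA12 reached the level of the filter in A498 alone, and PCDHGB3 in resistant 786-O alone. A high level in either of these groups moves the difference down, so their calls support nothing by number. Among the 6 tested alpha genes edgeR called PCDHA10 alone, whereas DESeq2 called all 6. These 6 had 0 or 1 counts in every library of 786-O and resistant 786-O, so their change there could not be estimated. Neither number is read as a difference between the lines. PCDHB16 rose in resistant 786-O and fell in resistant A498 (difference -3.32 ± 0.31 on the log2 scale, edgeR adjusted p = 1.78e-07), as did PCDHGB1 (-3.66 ± 0.45, adjusted p = 3.70e-06), PCDHGA6 (-2.73 ± 0.34), PCDHGA4 (-3.02 ± 0.47) and PCDHB9 (-1.61 ± 0.42). PCDHB13 (1.5 ± 0.30), PCDHGB7 (1.99 ± 0.54) and PCDHB11 (1.36 ± 0.46) rose in both, with the larger log2 change in resistant A498. Their means in A498 were below those in 786-O, at 0.584 against 1.31, 0.170 against 0.577 and 0.154 against 0.244 CPM. In resistant A498 they were 3.46, 1.45 and 1.29 CPM, against 2.79, 1.21 and 0.790 in resistant 786-O. The part of the parental levels in these differences was not tested. The PCDHB11 difference (adjusted p = 0.0160) was lost without 786-O replicate 3 (0.0513) and without A498 replicate 3 (0.0694). DESeq2 (0.0551) and thinning (0.054) lost it as well. For PCDHGC5, which fell in both, the difference of -0.25 ± 0.65 (adjusted p = 0.753) did not pass the test.

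Genes that lie next to each other could differ in direction. Between 786-O and A498, PCDHB13 in beta (log2 1.20 ± 0.25) was higher in 786-O, and the next genes along, PCDHB14 (-0.59 ± 0.15) and PCDHB15, were lower. The 6 tested alpha genes were all lower. Each of them reached the level of the filter in A498 alone, so their shared direction is no contrast to beta. PCDHB15 also reached it in A498 alone. PCDHB15 had 1, 0 and 3 counts in 786-O, and its ratio of A498 to 786-O was 34.7 (13.1 to 130). In gamma, PCDHGB7 (1.74) lay between PCDHGA10 and PCDHGA11 and close to PCDHGA12, which reached 1 CPM in A498 alone. TAF7, a gene for a TFIID subunit that lies between the beta and gamma clusters and was named for this position after its values were seen, had a mean of 114 ± 1.8 CPM in 786-O, 104 ± 9.3 in resistant 786-O, 72.1 ± 5.3 in A498 and 111 ± 1.7 in resistant A498.

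Among 37 genes within 1 Mb of the clusters, 34 were tested. Between 786-O and A498, 17 were higher and 11 lower, at a median of 0.22 (log2), where 38.2% of all genes were higher and 36.1% lower. In resistant 786-O against 786-O, 10 were higher and 11 lower (median -0.07), beside 35.0% and 33.5% of all genes. For resistant A498 against A498 these were 16 and 12 (median 0.01), beside 36.3% and 36.4%. Against A498, NRG2, a neuregulin, fell in resistant A498 by 0.50 ± 0.10 and HBEGF, a ligand of the EGF receptor, rose by 1.20 ± 0.13. In resistant 786-O against 786-O, NRG2 rose by 2.04 ± 0.12 and HBEGF fell by 0.60 ± 0.10. SPRY4, an inhibitor of receptor tyrosine kinase signalling, fell by 2.88 ± 0.32 in resistant A498 and was not called in resistant 786-O (log2 0.69 ± 0.31, edgeR adjusted p = 0.0636).

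**Figure D5:**
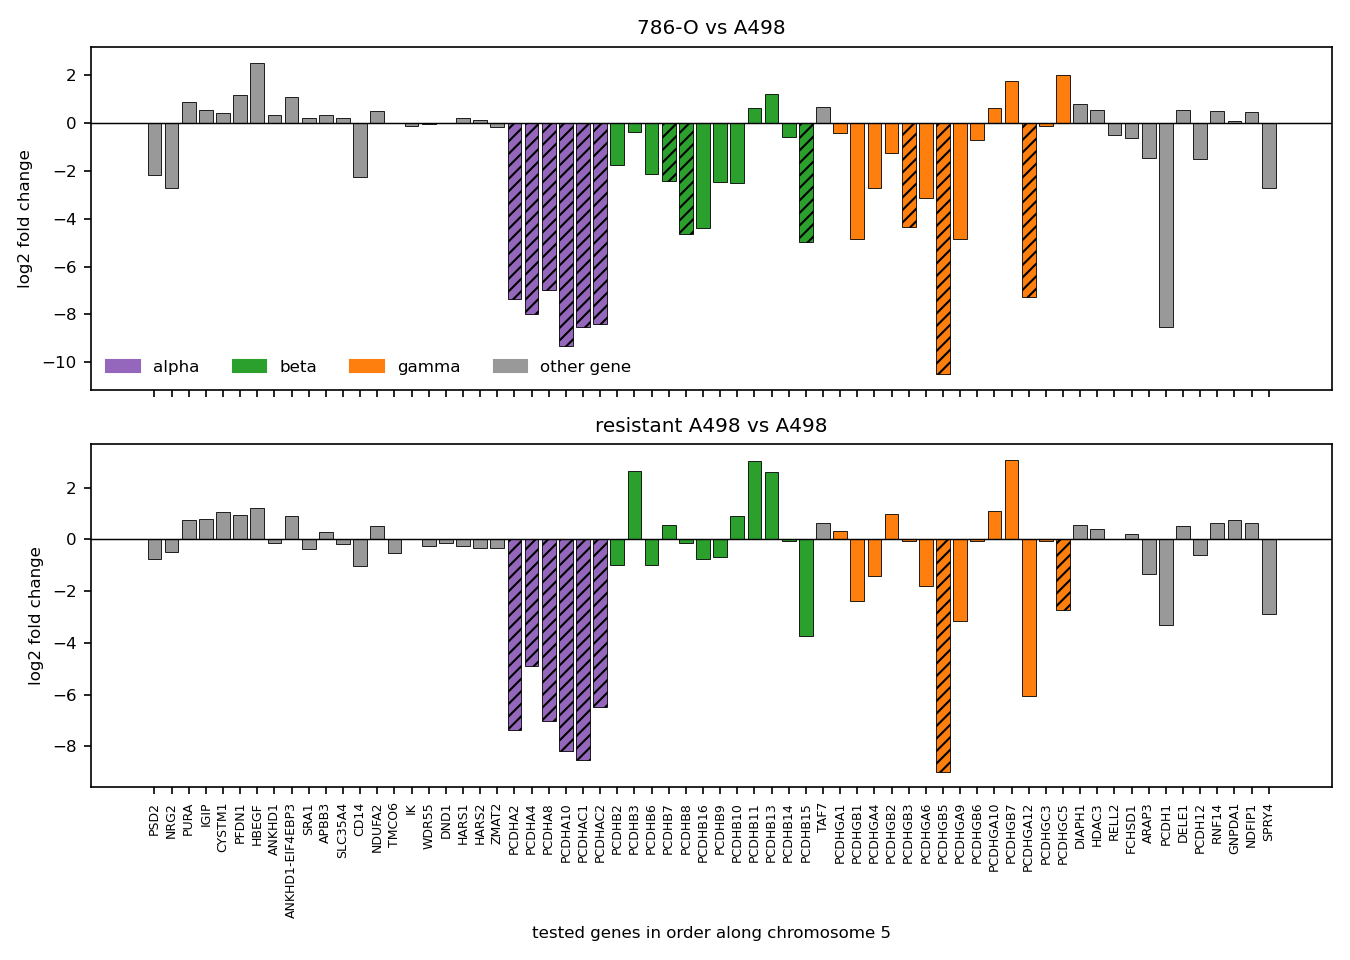
Fitted log2 fold change of the tested members and of 34 other genes within 1 Mb, in order along chromosome 5, for 786-O against A498 (top) and resistant A498 against A498 (bottom). Colours mark the clusters and grey the other genes, of which PCDH1 and PCDH12 are non-clustered protocadherins. Hatched bars have a group with at most 3 counts in every library, so that their height is no bound. The alpha bars all point down, and all are of genes that reached the level of the filter in A498 alone. Beta and gamma bars point both ways.

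The non-clustered protocadherins, which are single genes elsewhere in the genome or, as PCDH1 and PCDH12, nearby on chromosome 5, were looked at for comparison. Of 11 genes 6 were tested, and 5 were higher in resistant 786-O than in 786-O, with none lower, where 35.0% of all genes were higher and 33.5% lower. PCDH10 had 0.0526, 0.103 and 0.0444 CPM in 786-O and 2.61, 2.59 and 2.69 in resistant 786-O (log2 5.25 ± 0.26, edgeR adjusted p = 1.99e-10), with 2.28 to 2.63 CPM in A498 and 2.19 to 3.06 in resistant A498. PCDH1 had 0.210, 0.259 and 0.111 CPM in 786-O, 8.39, 11.7 and 7.11 in resistant 786-O, 68.6, 73.9 and 73.5 in A498 and 7.01, 7.37 and 7.47 in resistant A498. PCDH7 (1.88 ± 0.08) and PCDH9 (1.91 ± 0.30) rose in resistant 786-O too. In resistant A498 against A498, 1 of the 6 was higher, PCDH7 (1.16 ± 0.09), and 2 were lower, PCDH1 by 3.31 ± 0.14 and PCDH18 by 2.35 ± 0.57, beside 36.3% of all genes higher and 36.4% lower.

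Of 26 genes for regulators of protocadherin promoters, all tested, 4 were higher and 15 lower in resistant 786-O than in 786-O (median log2 -0.25, against 0.03 for all genes), beside 35.0% and 33.5% of all genes, and 13 were higher and 6 lower in resistant A498 than in A498 (median 0.18, against 0.00), beside 36.3% and 36.4%. The de novo DNA methyltransferase DNMT3A had 2.66, 2.30 and 2.35 CPM in 786-O and 5.96, 4.31 and 6.21 in resistant 786-O (1.18 ± 0.13, edgeR adjusted p = 1.34e-06). It was highest in A498, at 11.4 to 11.9, and had 7.08 to 7.64 in resistant A498. Against A498, DNMT3A fell in resistant A498 by 0.66 ± 0.12. DNMT3B rose by 1.09 ± 0.07 in resistant 786-O and fell by 0.34 ± 0.07 in resistant A498. TET1, which oxidizes methylcytosine, fell by 1.01 ± 0.27 in resistant 786-O and was not called in resistant A498 (log2 -0.25 ± 0.28, edgeR adjusted p = 0.438). TRIM28, a corepressor, fell by 0.64 ± 0.05 in resistant 786-O and by 1.46 ± 0.05 in resistant A498, from 861 to 909 CPM in A498 to 318 to 329. CTCF, named for its role with its values seen, fell by 0.63 ± 0.06 in resistant 786-O and by 0.27 ± 0.06 in resistant A498. What part any of these has in the levels of the clustered protocadherins was not tested.

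Of 21 genes for partners of the protocadherin tail and for its cleavage, 20 were tested. In resistant 786-O 6 were higher and 11 lower (median -0.19), beside 35.0% and 33.5% of all genes, and in resistant A498 15 were higher and 4 lower (median 0.30), beside 36.3% and 36.4%. PTK2B, a relative of focal adhesion kinase that binds the constant tail, had 23.9, 22.2 and 23.9 CPM in A498 and 2.20, 1.67 and 2.70 in resistant A498 (log2 -3.40 ± 0.17, edgeR adjusted p = 8.03e-11), while in resistant 786-O it rose by 1.01 ± 0.18 from 1.62 to 1.66 CPM in 786-O. The WAVE family members WASF1 (2.24 ± 0.14), WASF2 (1.06 ± 0.05) and WASF3 (4.31 ± 0.18) rose in resistant A498. In resistant 786-O, WASF1 fell by 0.38 ± 0.12 and WASF2 was not called (log2 -0.02 ± 0.05, edgeR adjusted p = 0.747). WASF3 also rose in resistant 786-O, by 2.63 ± 0.15, from 1.13 to 1.66 CPM in 786-O.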

How the data were processed

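mRNA libraries of 4 groups (3 each) were re-analysed. Per the study's methods, the authors prepared TruSeq Stranded mRNA libraries, sequenced them in pairs, trimmed reads with Trimmomatic 0.36.6, aligned them to GRCh38/hg38 with HISAT2 2.1.0 and counted exons with featureCounts 1.6.3 on a GENCODE annotation. bcl2fastq 2.19.0 is named in the submitters' processing notes. The authors deposited raw counts, not normalized. All columns were mapped to a sample by name. A later GENCODE annotation of the same assembly gave positions, exon overlap and neighbours.

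Groups came from the sample titles. In R 4.3.3, edgeR 4.0.16 (filterByExpr, TMM, quasi-likelihood test, prior count 0.125) was fitted to 12 libraries in 4 group means over 19929 genes, with Benjamini-Hochberg adjustment over all of them at 0.05. CPM here are counts per 1e6 of the TMM-scaled library size. Python 3.11.15 (pandas 2.3.3, matplotlib 3.10.9) served for sums, shares and plots. On simulated counts of 19177 genes, 200 genes drawn from those with a mean above 1 CPM were changed 2-fold. Of these 190 were recovered, with 15 unchanged genes called. Most members have a mean below 1 CPM, so this recovery was not shown for them. The members and lists (regulators, tail partners, non-clustered protocadherins, genes within 1 Mb and cell markers) were chosen with earlier results of these data known. Values in every library were given for the 4 most counted members of each cluster, for up to 5 members per direction and comparison with the largest change among those called with separate libraries and at least 1 CPM, and for C-type genes, and other members by range and counts. Of the other lists, up to 4 genes called with a log2 change beyond 1 could be named. Members outside this rule, and CTCF, TAF7 and PCDH18, were named after their values were seen. A group with at most 3 counts in every library was treated as at the floor, and folds against it use exact 95% intervals on summed counts or, at 0 counts, a bound at 3 counts over the group. Depth sets precision, since most members have under 100 counts per library.

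Replicate numbers, which groups share, were checked for pairing: correlations of deviations from group means over 10085 genes were -0.18 to 0.20, so samples were not paired. The alternatives were library size alone, DESeq2 1.42.0, no filter, 10 counts in every library, 2 groups alone, a replicate block, thinning, removal of the GC and length trend, a log2 change over 1, each replicate left out, other detection minimums and shares per kb. Detection at the depth of the smallest library was added after the data were seen.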

Additional observations from a re-analysis of the deposited data

Results flagged for a closer look

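The change from parental to resistant libraries differed between the cell lines by edgeR's interaction test for 19 of the 32 tested members, where 68.3% of all genes did. Differences are log2 fold changes of resistant A498 over A498 minus those of resistant 786-O over 786-O. With members at a mean of at least 1 CPM in some group, the difference was -7.28 for PCDHA10, -6.63 for PCDHGA12, -5.55 for PCDHB15, -3.66 for PCDHGB1 and -3.32 for PCDHB16. It was 1.99 for PCDHGB7, 1.5 for PCDHB13 and 1.36 for PCDHB11. PCDHA10, PCDHGA12 and PCDHB15 reached the level of the filter in A498 alone. The values of PCDHA10, PCDHGA12 and PCDHB15 are fitted ones and no bounds, since these genes had at most 3 counts in every library of 786-O, and PCDHA10 and PCDHGA12 also in resistant 786-O, so no order is read from them. That of PCDHA10 rests on 0 to 1 counts in each library of 786-O and resistant 786-O, and its call was lost without resistant 786-O replicate 3 (edgeR adjusted p = 0.942), the one resistant 786-O library with a count. The libraries labelled resistant A498 resembled 786-O more than A498 across genes, and the part this has in these differences was not tested. With 3 libraries in a group, single outlying values were not tested.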

How the results depend on the processing

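Of 118 log2 fold changes called for single members, 1600 alternative values were computed, of which 1521 kept the direction and the call, 77 kept the direction and lost the call (47 of these by leaving out a replicate) and 2 changed direction. Both are of PCDHGC3 with the GC and length trend removed, at -0.084 for resistant 786-O over 786-O and 0.34 for the difference of the 2 changes. That removal moved the median log2 fold change of all genes in resistant 786-O over 786-O from 0.03 to -0.12, and scaling by library size alone moved it to 0.18, while the share of higher genes among those called went from 51.1% to 38.8% and 62.5%.

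A minimum of 10 counts in every library left 6 members for testing, of which 5 were called in resistant 786-O over 786-O, 3 in resistant A498 over A498, 5 in the difference, 6 in 786-O over A498, 5 in resistant A498 over 786-O and 3 in resistant A498 over resistant 786-O, fewer because fewer genes were tested. Thinning gave 11 for resistant 786-O over 786-O. For resistant A498 over resistant 786-O it gave 7, the 2 groups alone 6 and a log2 change over 1 also 7. Leaving out a replicate gave 7 to 12 calls there, 15 to 17 in resistant 786-O over 786-O, 23 to 28 in resistant A498 over A498, 15 to 22 in the difference, 25 to 28 in 786-O over A498 and 17 to 19 in resistant A498 over 786-O. Under the replicate block the 6 numbers, in the order resistant 786-O over 786-O, resistant A498 over A498, difference, 786-O over A498, resistant A498 over 786-O and resistant A498 over resistant 786-O, were 17, 24, 19, 27, 18 and 10, and single calls lost under the block were those of PCDHB14, PCDHAC2 and PCDHGB2. The replicate numbers did not pair the samples.

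By library size alone the 786-O sums became 5.84 CPM in beta and 50.5 in gamma. Per kb, PCDHGC3 held 90.3% of gamma in 786-O and 48.9% in A498. A mean of 3 counts was reached by 22 members of 786-O and 44 of A498, and a mean of 50 by 5 of 786-O, 8 of resistant 786-O, 12 of A498 and 4 of resistant A498, while scaling to the smallest library left 13 in resistant 786-O. The cause of these moves was not tested beyond the settings themselves. Most members are limited by counts under 100 per library.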
